A study of Mus musculus with 6 samples.

Results

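The miR-322 and miR-503 cluster is a row of X-linked microRNA (miRNA) hairpins, described here in cardiac tissue of 6 mice. The mice were wild-type males of the inbred strain C57BL/6J, 18 weeks old, and all 6 samples form 1 group, so no treatment or mutant is compared. They are called heart 1 to heart 6 after the number in their labels. The tissue label reads whole heart, whereas the extraction protocol names the frozen tip of the ventricles, so the sampled region is uncertain. The cluster was taken as every sense entry of Mir322, Mir503, Mir351, Mir542, Mir450-1, Mir450-2 and Mir450b, both arms, which gave 14 of the 1102 entries in each count file. These entries come from 7 hairpins and hold 13 distinct mature miRNAs, since Mir450-1 and Mir450-2 give the same 5p arm. Of the 13, 8 had a mean of at least 10 reads and 5 did not. No antisense entry lay at these hairpins (0 entries).

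An miRNA is cut from the 5p or the 3p arm of a hairpin within a longer primary transcript, and its seed, bases 2 to 8, does most of the pairing with target messenger RNAs. Hairpins of 1 primary transcript are made together, but later steps (cropping, dicing, choice of arm, decay) can set the amount of each mature miRNA apart. miR-322, the mouse counterpart of human miR-424, carries the seed of the miR-15 and miR-16 family, which represses cell cycle genes, and it is known with miR-503 from cell cycle exit in differentiating muscle cells. miR-351 carries the seed of the miR-125 family.

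The mature arms that held most reads of their hairpins are printed 5′ to 3′ with the seed in capitals, because the arm and seed results below turn on them. miR-503-5p is added for its likeness to miR-322-5p. All 14 arms were matched in RefSeq (GRCm38.p6), the source of these sequences.
miR-322-5p: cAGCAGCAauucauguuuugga
miR-503-5p: uAGCAGCGggaacaguacugcag
miR-503-3p: gAGUAUUGuuuccacugccugg
miR-351-5p: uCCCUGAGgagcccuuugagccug
miR-542-3p: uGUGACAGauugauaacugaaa
miR-450a-5p: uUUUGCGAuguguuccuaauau
miR-450b-5p: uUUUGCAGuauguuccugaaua
After its first base miR-503-5p shares the next 6 bases with miR-322-5p, so the seeds differ at their last base. miR-450a-5p and miR-450b-5p share their first 6 bases.

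The hairpins whose arms are compared most closely are printed below, also from RefSeq. Capitals mark both mature arms in Mir322, Mir503 and Mir542, which show the contrast between a hairpin read mostly from 5p and those read mostly from 3p.
Mir322: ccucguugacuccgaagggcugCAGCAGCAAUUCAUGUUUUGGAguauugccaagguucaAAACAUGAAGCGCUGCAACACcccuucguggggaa
Mir503: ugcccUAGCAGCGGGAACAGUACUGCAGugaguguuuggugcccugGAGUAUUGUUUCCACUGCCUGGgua
Mir542: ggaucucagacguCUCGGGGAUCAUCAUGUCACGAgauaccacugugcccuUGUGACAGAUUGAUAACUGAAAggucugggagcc
In the copies of miR-450a, capitals mark the 5p arm alone, to show why reads of it cannot be placed by their sequence.
Mir450-2: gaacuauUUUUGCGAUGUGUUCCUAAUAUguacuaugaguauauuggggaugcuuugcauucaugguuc
Mir450-1: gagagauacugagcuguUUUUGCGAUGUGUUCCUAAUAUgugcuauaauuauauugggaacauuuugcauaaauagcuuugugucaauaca
The 5p arm and its flanks are identical over 25 bases, with 1 matching base before the arm and 2 after it.

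All 7 hairpins lie on the minus strand of chromosome X (GRCm38) within 6353 bases, and 0 of them overlap another annotated gene in GENCODE M21. Read in the direction of transcription, Mir322 (chrX:53054255-53054349), Mir503 (chrX:53053984-53054054) and Mir351 (chrX:53053255-53053353) span 1095 bases. After a gap of 3767 bases come Mir542 (chrX:53049403-53049487), Mir450-2 (chrX:53048299-53048367), Mir450-1 (chrX:53048154-53048244) and Mir450b (chrX:53047997-53048078), which span 1491 bases. The processed transcript C430049B03Rik ends 696 bases before Mir322, and the lincRNA Gm28730 lies in the gap, both on the same strand. The files hold no reads of the primary transcript, so levels below are of mature arms.

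**Figure D1:**
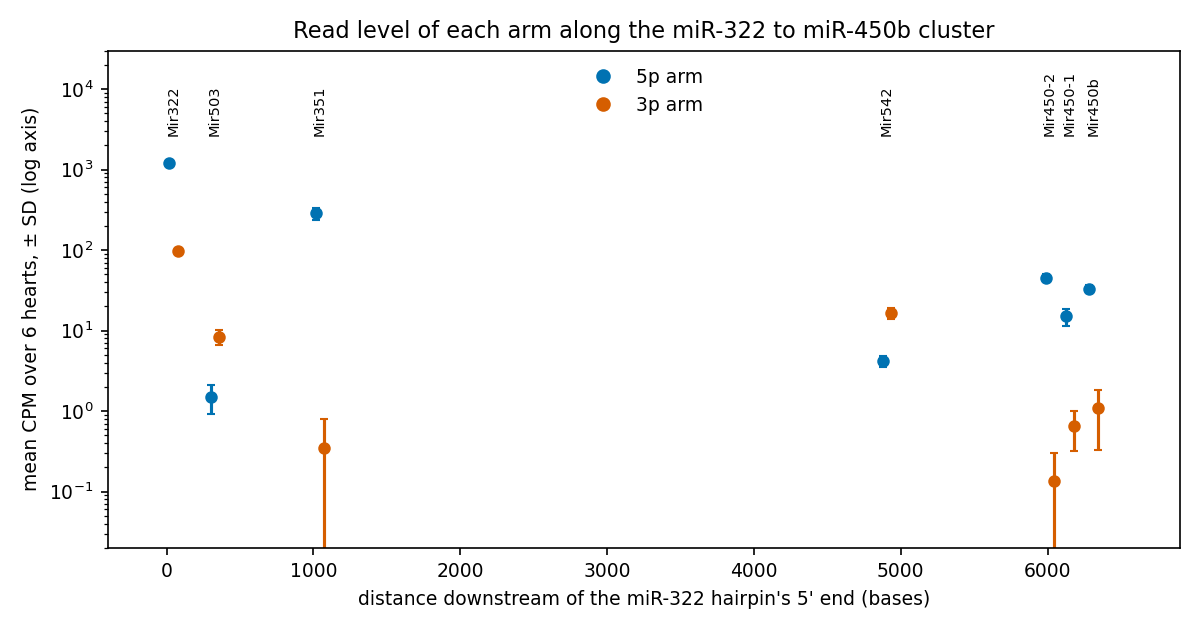
Mean level of each arm (CPM, the reads per 1000000 counts of a library, log axis) against the distance of its hairpin downstream of Mir322 in bases, with the 5p arm in blue and the 3p arm in orange; bars are ± SD over 6 hearts and run off the axis where the SD exceeds the mean. miR-322-5p (1192 CPM) and miR-351-5p (286 CPM) stand highest, and the 3p arm lies above the 5p arm at Mir503 and Mir542 alone.

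The 6 libraries held 3966171 to 6007325 counts, so a count of 0 allows up to 0.499 to 0.756 CPM (3 counts). The reads carried no molecular identifiers, so counting intervals cover counting error only. Cardiac miRNAs were present at high levels, with miR-133a-3p at 89003 ± 4407 CPM, the Myh6-intron miR-208a-3p at 1227 ± 270 CPM and the Myh7b-intron miR-499-5p at 1126 ± 89.8 CPM (SD, n = 6). Other cells of the organ were present too, with the smooth muscle miR-143-3p at 88965 ± 16616 CPM, the endothelial miR-126a-5p at 77582 ± 4338 CPM and the erythroid miR-451a at 3476 ± 1299 CPM, whereas the neural miR-124-3p was at or below 4.79 CPM and the neural miR-9-5p stood at 22.0 ± 2.38 CPM. In such bulk tissue, fewer cells of a type and less RNA per cell cannot be told apart. Adapter ligation favours some RNA ends, so a ratio between different miRNAs is one of reads, not of molecules.

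The cluster held 0.170% ± 0.0113 of all counts, or 1702 ± 113 CPM (SD, n = 6). In hearts 1 to 6 it stood at 1632, 1752, 1653, 1897, 1575 and 1705 CPM. On library totals heart 4 was thus the highest and heart 5 the lowest. These sums were not adjusted for library composition, for which edgeR gave heart 4 the largest factor (1.08). The cluster took 17.3% ± 0.989 of the reads at the 100 sense entries of chromosome X, which come from 60 hairpins.

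Set beside 3 other miRNA clusters of chromosome X, the miR-322 cluster had the most reads; other X-linked hairpins were not compared. It stood 4.90-fold above the cluster of miR-221 and miR-222, whose sum was 348 ± 36.3 CPM (log2 ratio 2.29 ± 0.14, SD). It stood 8.25-fold above the cluster of miR-532 and miR-188 in Clcn5 introns, at 207 ± 14.3 CPM (log2 ratio 3.04 ± 0.18). The cluster of miR-106a and miR-363, a paralog of miR-17-92, was taken as Mir106a, Mir18b, Mir20b and Mir363 alone. These hairpins had 46 reads in all (1.56 ± 0.925 CPM), 1281-fold below the miR-322 cluster. Each ratio was above 1 in 6 of 6 hearts, with an exact sign-flip permutation p of 0.03125 (two-sided, 0.03125 after adjustment over 3), the smallest that 6 hearts allow.

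miR-322-5p led the cluster by a wide margin. It had 1200, 1252, 1129, 1279, 1102 and 1191 CPM in hearts 1 to 6 (1192 ± 68.1, SD), which is 70.1% ± 2.20 of the cluster and rank 52 among all mature miRNAs. The hearts lay 1.16-fold apart, heart 4 highest and heart 5 lowest on library totals, while after TMM scaling (edgeR's adjustment for library composition) heart 2 was the highest at 1314 CPM. Its partner arm miR-322-3p had 86.7, 102, 98.9, 109, 94.6 and 99.2 CPM (98.3 ± 7.34, rank 126).

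miR-503, the other miR-15/16-like hairpin of the cluster and only 200 bases from Mir322, was near the bottom. miR-503-3p had 5.88, 8.25, 9.70, 9.33, 6.49 and 10.2 CPM in hearts 1 to 6 (8.31 ± 1.77, rank 266), lowest in hearts 1 and 5. miR-503-5p, the arm usually studied for its cell cycle targets, had 3, 12, 7, 6, 7 and 9 reads (1.498 ± 0.591 CPM, rank 379). Per 100 reads of miR-322-5p there were 0.697 ± 0.147 of miR-503-3p and 0.125 ± 0.0466 of miR-503-5p.

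miR-351-5p was the second most read member. It had 209, 273, 302, 366, 268 and 297 CPM in hearts 1 to 6 (286 ± 51.5, rank 83), 16.7% ± 2.30 of the cluster. Heart 1 was the lowest and heart 4 the highest, 1.75-fold apart. Its 3p arm had 2, 0, 5, 0, 2 and 1 reads, a level at which hearts cannot be told apart.

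The hairpins beyond the gap were read less than miR-322-5p and miR-351-5p. miR-450a-5p, summed over both copies, had 65.7, 58.8, 56.5, 71.4, 54.9 and 53.2 CPM in hearts 1 to 6 (60.1 ± 7.03, rank 149), highest in hearts 4 and 1. The files booked 75.1% ± 4.203 of its reads (67.5% to 78.5%) at Mir450-2, but the mature arms are identical and the treatment of reads with several matches is not given in the sources used here, so this is no measure of the copies' output. miR-450b-5p had 39.1, 33.0, 31.5, 36.1, 30.6 and 29.3 CPM (33.3 ± 3.68, rank 183), again highest in hearts 1 and 4 on library totals. After TMM scaling heart 1 stayed the highest, but heart 2 (34.6 CPM) lay above heart 4 (33.4 CPM). The 3p arms were nearly unread, with 11, 3, 5, 6, 2 and 3 reads of miR-450b-3p, 2, 2, 4, 1, 5 and 6 of miR-450a-1-3p and 0, 2, 1, 0, 0 and 1 of miR-450a-2-3p. Counts of the first pair are uncertain, because these arms share their first 18 bases and a seed, shown here in capitals.
miR-450a-1-3p: aUUGGGAAcauuuugcauaaau
miR-450b-3p: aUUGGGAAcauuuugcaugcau

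miR-542, whose 3p arm is known in human cells as a repressor of survivin, was read from both arms. miR-542-3p had 18.3, 17.3, 15.4, 18.4, 11.99 and 17.7 CPM in hearts 1 to 6 (16.5 ± 2.47, rank 225), with heart 5 below the rest. miR-542-5p had 3.57, 4.23, 4.26, 5.29, 3.50 and 4.11 CPM (4.16 ± 0.647, rank 311).

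**Figure D2:**
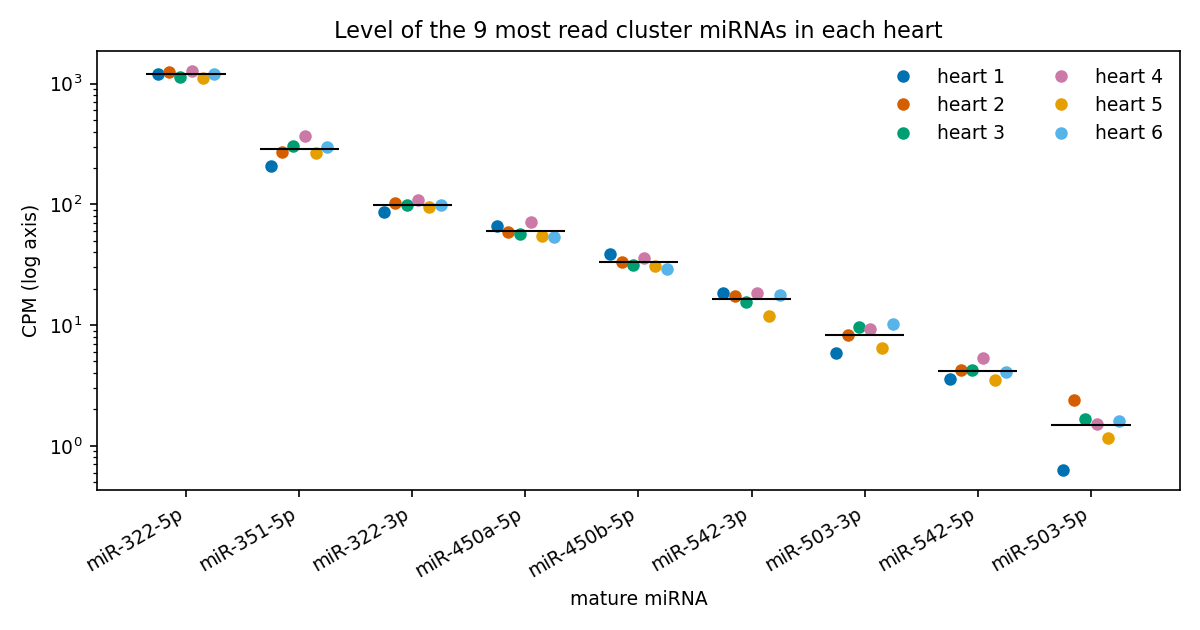
Level of the 9 most read cluster miRNAs in each heart (CPM, log axis); points are hearts 1 to 6 and the line is their mean. The miRNAs fall in steps from miR-322-5p at 1192 CPM to miR-503-5p at 1.498 CPM, and each step among the first 8 has the same direction in 6 of 6 hearts.

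Among the 8 members averaging 10 reads or more, every step of the order held in each heart. The order was miR-322-5p, miR-351-5p, miR-322-3p, miR-450a-5p, miR-450b-5p, miR-542-3p, miR-503-3p and miR-542-5p. Neighbours differed by 4.22-fold (miR-322-5p over miR-351-5p), 2.87-fold, 1.64-fold, 1.81-fold, 2.03-fold, 2.01-fold and 1.98-fold in that order of read counts. All 7 neighbouring pairs differed in 6 of 6 hearts (exact sign-flip permutation p of 0.03125, two-sided, and 0.03125 after adjustment over 7). The order does not follow the position of the hairpins, since Mir503 lies between the most read pair.

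The arms of each hairpin were then compared within libraries. Mir322, Mir351, miR-450a and Mir450b gave more 5p than 3p reads, and Mir503 and Mir542 gave more 3p reads, each in 6 of 6 hearts. Thus 4 of 6 hairpins were called for 5p, where 48.6% of the 212 hairpins tested across the table were, and 2 of 6 for 3p, where 41.0% were. The call needs an edgeR quasi-likelihood adjusted p under 0.05 and a 2-fold ratio, and miR-450a counts once for both copies.

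Mir351 had the most one-sided reads, 8351 of 5p against 10 of 3p over the 6 libraries (835 to 1, exact binomial 95% interval 454 to 1742). Of the 190 called hairpins, 29 had a larger ratio, so such a ratio is not rare. Of the 10 reads of 3p, 5 came from heart 3, and without it the ratio was 1415 to 1 (7074 against 5 reads). miR-450a had 1755 against 24 reads (73.1 to 1, 49.0 to 114) and Mir450b 974 against 30 (32.5 to 1, 22.6 to 48.4). These ratios rest on few 3p reads, as their intervals show.

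Mir322 kept a sizeable partner arm. Its 5p share was 93.3%, 92.5%, 91.9%, 92.2%, 92.1% and 92.3% in hearts 1 to 6 (92.4% ± 0.470, SD), so the hearts nearly coincided. The pooled ratio was 12.1 to 1 (11.7 to 12.6), with an edgeR log2 ratio of 5p over 3p of 3.60 ± 0.11 (SE). The median ratio of called hairpins was 41.9-fold.

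Mir503 and Mir542 ran the other way. At Mir503 the 5p share was 9.68%, 22.6%, 14.6%, 14.0%, 15.2% and 13.6% in hearts 1 to 6 (14.95% ± 4.24), with 44 reads of 5p against 243 of 3p. Its log2 ratio of 5p over 3p was -2.45 ± 0.25 (SE), and its adjusted p of 6.58e-22 was the largest of the 6 hairpins (edgeR). At Mir542 the 5p share was 16.3%, 19.6%, 21.7%, 22.3%, 22.6% and 18.9% (20.2% ± 2.43), with 121 reads of 5p against 482 of 3p and a log2 ratio of -1.98 ± 0.18. Their pooled ratios of 3p to 5p, 5.52 to 1 (3.99 to 7.80) and 3.98 to 1 (3.26 to 4.90), are among the smaller ones, since 30 and 23 of the 190 called hairpins had a ratio below them. These p-values rest on a spread that edgeR pooled over all hairpins.

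**Figure D3:**
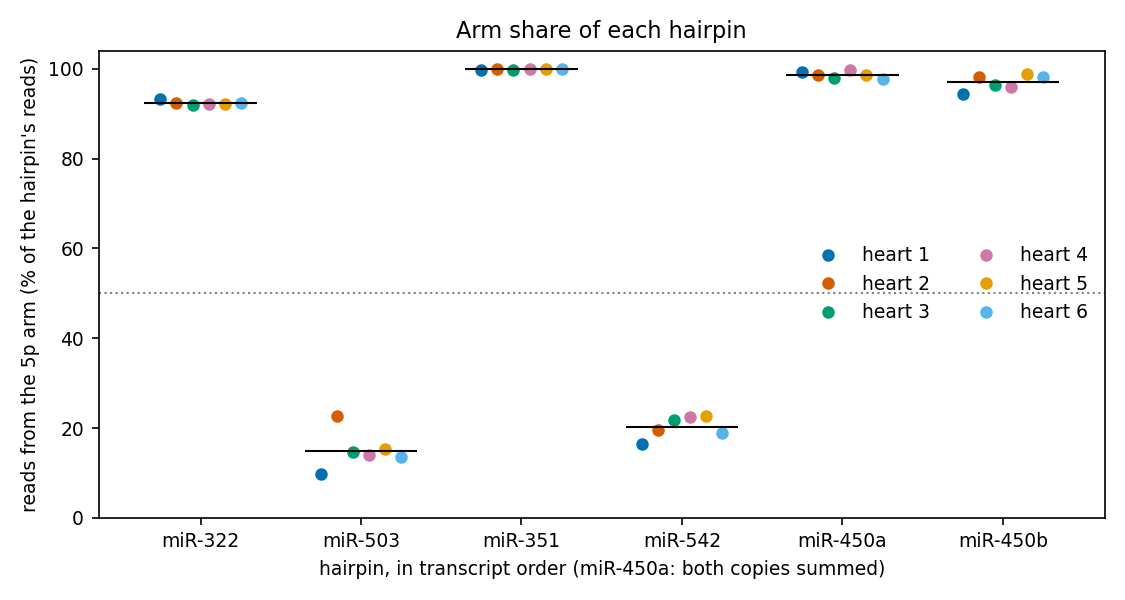
Share of each hairpin's reads that came from the 5p arm (%), for hearts 1 to 6 (points) with their mean (line); the dotted line marks equal arms. Mir322, Mir351, miR-450a and Mir450b lie above 90% in each heart, and Mir503 and Mir542 lie below 23%.

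Whether the arm share differed between hearts could be tested at 2 of the cluster's hairpins, those with an expected count of at least 5 in each cell. Neither Mir322 (chi-square adjusted p = 0.155) nor Mir542 (adjusted p = 0.887) was called, and 0 had an unadjusted p under 0.05. Of the 119 hairpins tested over all loci, 50.4% varied. At Mir542 the reads are few, so a moderate difference would not be detectable at this depth.

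The read-rich arm began with U in miR-351-5p, miR-542-3p, miR-450a-5p and miR-450b-5p, with C in miR-322-5p and with G in miR-503-3p. Of 161 called hairpins with a sequence, 54.7% of read-rich arms began with U, 24.2% with A, 18.0% with C and 3.11% with G. At Mir503 the less read arm is the one that begins with U.

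Levels of the cluster varied between hearts by modest amounts. Of the 8 miRNAs tested, 5 varied beyond counting noise (chi-square test of the 6 counts after TMM scaling, at an adjusted p under 0.05), against 70.5% of the 353 miRNAs tested. The smallest p-values were those of miR-322-5p (adjusted p = 1.36e-36) and miR-351-5p (1.75e-31), then miR-450a-5p (0.0164), miR-542-3p (0.0323) and miR-322-3p (0.0392). miR-450b-5p (0.0726), miR-503-3p (0.0823) and miR-542-5p (0.872) were not called. The test sets the hearts against counting error alone, with reads taken as independent and with library preparation part of the spread, so its p-value follows depth and does not rank the size of variation. Without heart 5 only miR-322-5p and miR-351-5p (2 of 8) were called, and without heart 1 these and miR-542-3p (3 of 8).

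In size, the spread of miR-351-5p was larger than that of miR-322-5p. Their coefficients of variation after scaling were 15.3% and 7.55%, where counting alone gives 2.68% and 1.31%, and the median of all miRNAs averaging 100 reads or more was 12.2%. miR-322-3p had 7.12%, miR-450a-5p 9.94%, miR-450b-5p 11.5%, miR-542-3p 16.6%, miR-503-3p 22.0% and miR-542-5p 13.3%. Counting alone gives 4.55%, 5.85%, 7.85%, 11.2%, 15.7% and 22.3% in the same order, so the spread of miR-542-5p cannot be told from counting error. miR-542-3p, miR-503-3p and miR-542-5p averaged fewer than 100 reads, so the 12.2% median does not cover miRNAs read as little.

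Ratios within a library show which members kept step without any scaling. Per 100 reads of miR-322-5p, miR-351-5p had 17.4, 21.8, 26.8, 28.7, 24.3 and 24.9 reads in hearts 1 to 6 (24.0 ± 3.97). Its coefficient of variation was 16.5%, where counting gives 2.98%, with heart 1 low and heart 4 high. By contrast, miR-450a-5p per 100 reads of its neighbour miR-450b-5p stood at 168, 178, 180, 198, 179 and 182 (181 ± 9.60), a variation of 5.31% where counting gives 9.79%. miR-542-3p per 100 miR-322-5p was 1.52, 1.38, 1.36, 1.44, 1.09 and 1.48 (1.38 ± 0.155). Heart 5 was the lowest, but the variation of 11.2% is no more than the 11.2% that counting gives.

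Correlation over the 6 hearts was computed for 28 pairs of cluster miRNAs, and 0 passed an adjusted p of 0.05, while 4 fell under 0.05 before adjustment (two-sided exact permutation test over 720 orders, on log2 CPM after TMM scaling). The smallest adjusted p was 0.214. Over the 26 pairs from different hairpins the median r was 0.46, and 20 were positive, where 49.9% of 62032 such pairs of the 353 miRNAs with enough reads were, with a median of -0.0023. All 4 pairs with a small unadjusted p were among the 26, and 6.31% of the 62032 pairs were under 0.05. Pairs share miRNAs, so they are not independent. The cluster's median rests on heart 5: without it the median was -0.056 with 12 of 26 positive, whereas without heart 1 it was 0.71 with 26 of 26 positive.

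The neighbours miR-450a-5p and miR-450b-5p had r = 0.88 (exact permutation p = 0.0153, adjusted p = 0.214) and rho = 0.94 (exact p = 0.0167, adjusted 0.467). Hearts 1 and 4 lay farthest from the median of miR-450a-5p, and r was 0.99 without them. miR-322-5p and miR-542-3p had r = 0.90 (exact permutation p = 0.00833, adjusted p = 0.214) and rho = 0.77 (exact p = 0.103, adjusted 0.576), and r = 0.99 without hearts 2 and 5.

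The other pairs with a small unadjusted p lost their r when hearts 1 and 5 were both left out, but not when either was left out alone. miR-322-3p with miR-503-3p had r = 0.85 (exact permutation p = 0.0472, adjusted p = 0.294) and rho = 0.60 (exact p = 0.242, adjusted 0.677), but r = -0.16 without them. miR-503-3p with miR-351-5p had r = 0.82 (exact permutation p = 0.0347, adjusted p = 0.294) and rho = 0.83 (exact p = 0.0583, adjusted 0.576), but r = -0.08 without them. Without heart 1 alone, r was 0.74 for the former pair and 0.69 for the latter. Without heart 5 alone, r was 0.79 and 0.85. Each r given without a pair of hearts, here and above, rests on the few that remain.

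No correlation was called between the most read members. miR-322-5p and miR-351-5p had r = 0.02 (exact permutation p = 0.972, adjusted p = 0.972) and rho = 0.09 (exact p = 0.919, adjusted 0.953), and r = -0.35 without hearts 2 and 5. The arms of Mir322 had r = 0.57 (exact permutation p = 0.237, adjusted p = 0.485) and rho = 0.66 (exact p = 0.175, adjusted 0.677), and r = -0.10 without hearts 2 and 5, but 0.97 without heart 1. The lowest r, -0.57, was that of miR-351-5p with miR-450b-5p (exact permutation p = 0.242, adjusted p = 0.485), with rho = -0.26 (exact p = 0.658, adjusted 0.953), and r = 0.23 without hearts 1 and 4. The exact p comes from 720 orders of 6 hearts, so a count of 0 after adjustment does not show that the miRNAs varied independently.

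**Figure D4:**
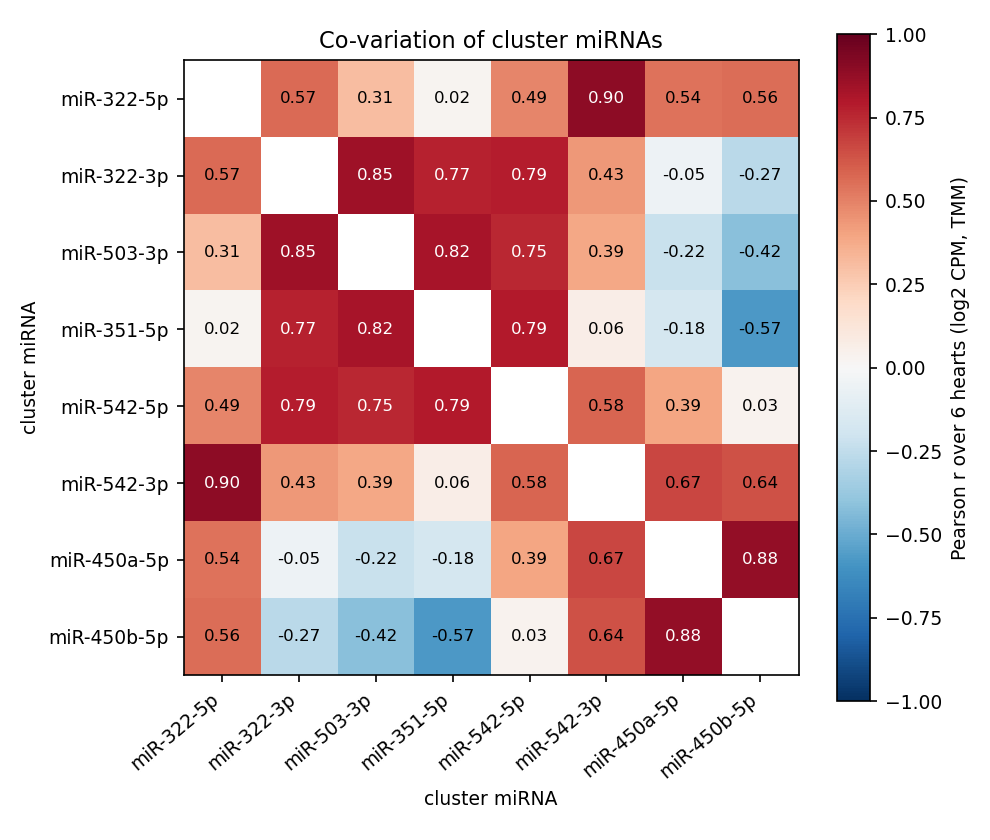
Pearson r over 6 hearts between the 8 cluster miRNAs that averaged 10 reads or more (log2 CPM after TMM scaling), in transcript order; red is positive and blue negative. High values lie within miR-322-3p, miR-503-3p, miR-351-5p and miR-542-5p and, apart from these, between miR-450a-5p and miR-450b-5p (0.88) and between miR-322-5p and miR-542-3p (0.90); 0 of 28 pairs passed an adjusted p of 0.05.

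For each cluster miRNA with a mean of at least 100 reads, the 3 most similar of 210 others over the 6 hearts were listed by Pearson r, as a description of shared libraries and scaling. miR-322-5p was nearest to miR-133a-3p (r = 0.98), miR-499-5p (0.97) and let-7f-1-3p (0.91), and miR-351-5p to miR-30c-5p (0.94), miR-128-3p (0.94) and let-7f-5p (0.92). miR-322-3p was nearest to miR-98-5p (0.93), miR-132-3p (0.92) and miR-3102-3p (0.91). miR-450a-5p was nearest to miR-29b-3p (0.97), miR-139-5p (0.95) and miR-135a-5p (0.90), and miR-450b-5p to miR-133b-3p (0.93), miR-30a-5p (0.92) and miR-142a-5p (0.91). No other cluster member appears among these. Members averaging fewer than 100 reads could not appear, such as miR-542-3p, whose r with miR-322-5p was 0.90. Among 210 miRNAs and 6 hearts, the highest r is large by selection.

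miR-322-5p shares its seed with members of the miR-15 and miR-16 family encoded elsewhere, and miR-351-5p with miR-125a-5p and miR-125b-5p. Their sequences, with the seed in capitals, show that miR-322-5p and miR-16-5p differ at the first base and again at the base after the seed.
miR-16-5p: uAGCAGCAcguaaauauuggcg
miR-195a-5p: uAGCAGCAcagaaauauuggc
miR-15a-5p: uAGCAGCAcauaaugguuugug
miR-497a-5p: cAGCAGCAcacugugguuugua
miR-15b-5p: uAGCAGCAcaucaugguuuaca
miR-125a-5p: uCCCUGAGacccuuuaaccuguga
miR-125b-5p: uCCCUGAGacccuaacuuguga
miR-351-5p has its first 8 bases in common with both miR-125 members.

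In mean reads, miR-322-5p was the second of the 6 miRNAs with the seed AGCAGCA and held 6.89% ± 0.615 of their sum (SD, n = 6). At 1192 ± 68.1 CPM it stood below miR-16-5p (14318 ± 1052 CPM, log2 ratio -3.58 ± 0.15) and 2.55-fold above miR-15a-5p (469 ± 44.2 CPM). It stood 3.94-fold above miR-497a-5p (303 ± 18.5 CPM) and 11.0-fold above miR-15b-5p (109 ± 19.4 CPM). Each of these differences had the same direction in 6 of 6 hearts (exact sign-flip permutation p = 0.03125, adjusted p = 0.0365 over 7 pairs).

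miR-195a-5p was the closest in reads. miR-322-5p had 1200, 1252, 1129, 1279, 1102 and 1191 CPM in hearts 1 to 6, against 898, 995, 930, 986, 1124 and 964 CPM of miR-195a-5p. It was higher in 5 of 6 hearts, all but heart 5, by 1.21-fold (log2 ratio 0.28 ± 0.16, SD), a difference that did not pass (exact sign-flip permutation p = 0.0625, adjusted p = 0.0625).

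miR-351-5p held 3.52% ± 0.424 of the reads with the seed CCCUGAG. At 286 ± 51.5 CPM it stood 15.8-fold below miR-125a-5p (4491 ± 650 CPM) and 11.8-fold below miR-125b-5p (3357 ± 532 CPM), in 6 of 6 hearts (exact sign-flip permutation p = 0.03125, adjusted p = 0.0365 over 7 pairs). miR-542-5p shares its seed with miR-6966-5p alone, which averaged 0.340 CPM. miR-322-3p, miR-503-3p, miR-542-3p, miR-450a-5p and miR-450b-5p shared theirs with no other miRNA of the table that has a RefSeq sequence.

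**Figure D5:**
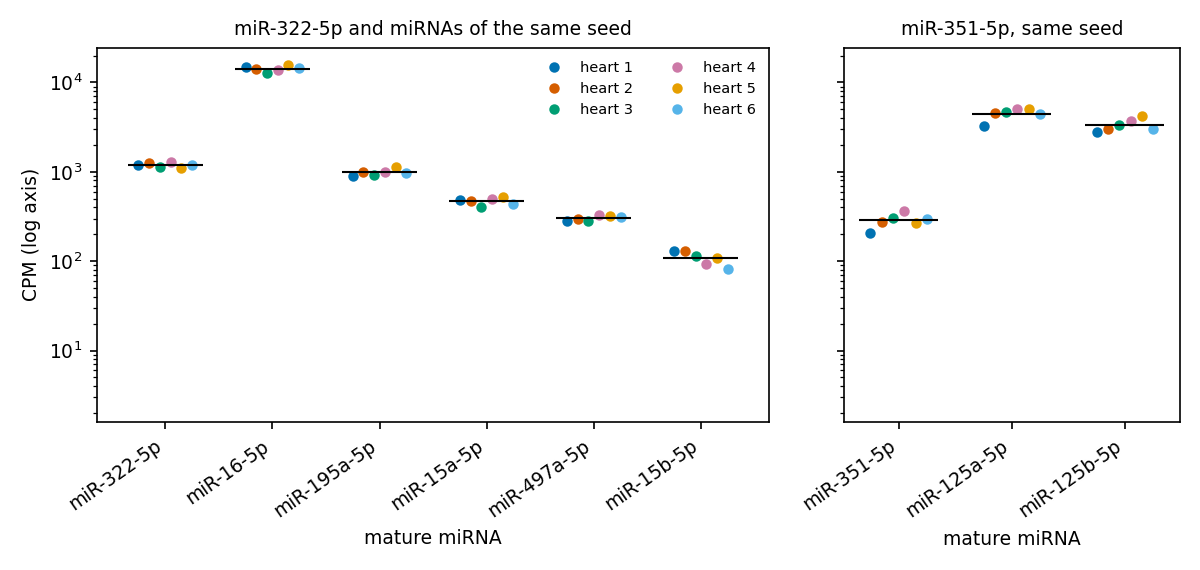
Level of miR-322-5p (left panel) and miR-351-5p (right panel) in each heart beside the miRNAs that share their seed (CPM, log axis), with the mean as a line. miR-322-5p (1192 CPM) lies between miR-16-5p (14318 CPM) and miR-15a-5p (469 CPM), close to miR-195a-5p (983 CPM), and miR-351-5p lies below both miR-125 members.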

How the data were processed

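Small RNA of 6 mouse hearts was sequenced, 1 library each, per the labels' protocols after Trizol extraction and TruSeq small RNA preparation. The deposited files hold whole-number counts per mature arm and locus, not normalized by the authors. The submitters' processing notes name GRCm38 as the build and list DESeq and edgeR with no role. The aligner, the counter and the treatment of reads with several matches were not given in the sources used here. Counts were used as deposited.

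Of 1102 entries, 1026 were sense. Of 76 antisense entries, 39 lay on a hairpin annotated on the other strand and were assigned to it, and 37 were left out. Entries of the same mature miRNA were summed. CPM used the library total, and spread and correlation used TMM scaling with a prior count of 1. Arms were compared with edgeR 4.0.16 (R 4.3.3), with the library as a block because both arms come from the same library, over 212 hairpins with a mean of at least 10 reads and Benjamini-Hochberg adjustment over all. The test was checked on simulated data, where 100% of 26 hairpins with a true log2 ratio of 2 passed the p threshold, as did 6.45% of 62 with a true ratio of 0. The SE of an arm's log2 ratio was derived as its absolute value over the square root of edgeR's F statistic. It is thus not the spread of the hearts alone. Sign-flip and permutation tests ran over all sign flips or orders with numpy 2.4.6 and were exact. Chi-square tests and binomial intervals used scipy 1.17.1.

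Named miRNAs were all cluster entries, the 3 most similar to each member with a mean of at least 100 reads, and those that share a seed with a member or belong to the miR-15/16 and miR-125 families. Members and lists were chosen with earlier results of these data known. The comparisons of miRNAs with the same seed were added after the data were seen. The labels do not say that samples came from separate extractions, so p-values measure only the spread between these samples. Alternatives were other scalings, filters, prior counts and tests, and leaving out each heart.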

Additional observations from a re-analysis of the deposited data

Results flagged for a closer look

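miR-542-3p per 100 reads of miR-322-5p was 1.09 in heart 5, against 1.36 to 1.52 in the other hearts. The gap to the nearest heart was 0.631 of the whole range, above Dixon's 95% critical value for 6 samples. The spread over the hearts, 11.2%, is close to the 11.2% that counting alone gives. miR-351-3p stood at 1.18 CPM in heart 3, which is 5 reads, against 0 to 2 reads in the other hearts, with a gap of 0.645 of the range. These were the stray values among 27 sets of 6 values checked, and chance alone marks about 1 set in 20.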

How the results depend on the processing

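The arm calls did not change with DESeq2, with other scalings, without a filter or without any 1 heart (6 of 6 each), nor with no replicate block (6 calls). With a minimum mean of 50 reads, 1 hairpin was called for 3p instead of 2, because Mir503 fell under the filter. The number of cluster miRNAs that varied beyond counting was 5, but 3 with DESeq2 size factors, 3 without hearts 4 and 5, and 2 to 7 when 1 heart was left out. The median r of 0.46 ranged from -0.056 to 0.71 when 1 heart was left out, and was 0.02 over the 9 pairs with means of at least 100 reads, an alternative chosen after seeing the data; the cause was not tested. On sense entries alone the cluster held 0.196% of the counts, since that total leaves out the assigned antisense entries. The level order was not tested without a heart, because 5 hearts cannot give an exact p below 0.0625. Of the single pairs, 15 changed the sign of r under at least 1 setting (21 sign changes). Most changes came with 1 heart left out, where 5 hearts give too few orders for a call to be likely. None of the 15 pairs was called where its sign changed, and their smallest adjusted p there was 0.332 (exact permutation test). With 1 heart left out their r ran from -0.46 to 0.58 for miR-322-3p with miR-450a-5p, -0.69 to 0.75 for miR-322-3p with miR-450b-5p, -0.072 to 0.96 for miR-322-3p with miR-542-3p, -0.23 to 0.39 for miR-322-5p with miR-351-5p, -0.17 to 0.60 for miR-322-5p with miR-503-3p. It ran from -0.076 to 0.71 for miR-322-5p with miR-542-5p, -0.53 to 0.71 for miR-351-5p with miR-450a-5p, -0.83 to 0.46 for miR-351-5p with miR-450b-5p, -0.44 to 0.71 for miR-351-5p with miR-542-3p, -0.82 to 0.26 for miR-503-3p with miR-450a-5p. It ran from -0.99 to 0.29 for miR-503-3p with miR-450b-5p, -0.41 to 0.85 for miR-503-3p with miR-542-3p, -0.041 to 0.86 for miR-542-5p with miR-450a-5p, -0.55 to 0.78 for miR-542-5p with miR-450b-5p and -0.32 to 0.86 for miR-542-5p with miR-542-3p. On library totals r was 0.17 for miR-322-3p with miR-450a-5p and 0.13 for miR-351-5p with miR-450a-5p, and with DESeq2 size factors it was -0.050 for miR-542-5p with miR-450b-5p. Among the other values of single miRNAs, pairs and ratios, 629 kept their side and direction, 6 passed and 10 no longer passed the threshold and 5 moved beyond 1 SD. Those of single levels and of miRNAs with the same seed were added after seeing the data. Members with few reads (miR-503-5p and the 3p arms of Mir351, miR-450a and Mir450b) limit what can be said of them.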
